A study of Homo sapiens with 8 samples.

Results

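The comparison described here is that of embryoid bodies (EB) with undifferentiated cells of H1, an established line of human embryonic stem cells. It rests on 4 of the 8 arrays of the series, the 2 labelled as differentiated H1 and the 2 labelled as undifferentiated H1. No array of H9, the other line of the series, entered it. Each sample's RNA was read on its own U133 Plus 2.0 array (Affymetrix). Undifferentiated H1 was grown in mTeSR1, a defined medium that keeps stem cells pluripotent. For EB, cells were separated with Accutase, a cell-detaching enzyme mix, and held for 3 days on plates to which they hardly attach. Their medium was hESGM without basic fibroblast growth factor (bFGF) and with 10 µM of the small molecule Y-27632. The state of the cells therefore changed together with medium, attachment and perhaps Y-27632, and these cannot be told apart. The labels do not say whether undifferentiated cells received Y-27632. The labels call the 2 arrays of a group biological replicates but name no cultures. The p-values therefore cover the spread between the deposited samples, which may be technical.

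Members of the comparison were all genes with a probe set annotated to exactly 1 gene symbol, 19775 genes in all. Each gene was read by its brightest such probe set over the 4 H1 arrays. A gene was tested when that probe set stood above the median of its own array on at least 2 of the 4 arrays, which 13532 genes did. Intensities are in the arbitrary units of the MAS5 algorithm, which combines the probes of a probe set into 1 value. Changes are EB minus undifferentiated on the scale of log2(intensity + 16), followed by the standard error (SE) of the fit. "Rose" and "fell" are used of genes with a Benjamini-Hochberg adjusted p under 0.05 in limma, a linear model that shares information on the spread across genes. Where a gene lay below the array median on both arrays of a group, its change is given as at least a fold against that median. Counts by size of change and list medians use the differences of all genes, such dim ones included. With 2 arrays in each group, the number of arrays limits the precision.

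Pluripotent stem cells hold a network of transcription factors, with NANOG and SOX2 among them, that keeps the genes of later lineages low while FGF and activin signals are present. In an aggregate cultured without these factors, cells begin to leave this state and to form the first derivatives of ectoderm, mesoderm and endoderm. Visceral endoderm of the yolk sac and fetal liver are known for secreting apolipoproteins, fibrinogen and alpha-fetoprotein. The BMP, WNT, NODAL and FGF pathways pattern the layers as they form.

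The change between the states was wide. Of the 13532 tested genes, 4128 rose (30.5%) and 3970 fell (29.3%), in all 59.8%. The counts of each list below are to be read beside these shares. At a change of at least 1 on the log2 scale 1381 rose (10.2%) and 578 fell (4.27%). Rises reached further than falls. A rise of at least 2 on the log2 scale was called for 467 genes and a fall of that size for 69, and a rise of at least 4 for 60 genes against 0 falls. Further, of all 19775 genes 522 were below the array median on both undifferentiated arrays and above it on both EB arrays. The reverse held for 327 genes. Each array was judged by its own median, which was higher in EB (85.1 and 83.0 against 73.0 and 74.7). The ratio of rises to falls depended on scaling: with every array centred on its median, 37.0% of the called genes were higher, against 51.0% as deposited. Among changes of at least 1 these shares were 57.4% and 70.5%. Centring moved the median change of tested genes from 0.015 to -0.14, so small changes are read against that shift. Across tested genes, the arrays correlated at 0.992 within undifferentiated cells, at 0.993 within EB and at 0.905 to 0.907 between the states, over genes that are not independent replicates. Median intensities ran from 73.0 to 85.1, and the 3' to 5' ratio of the GAPDH control probe sets from 0.869 to 0.938 with both EB arrays lower. For the ACTB control probe sets the ratio was 1.57 and 1.41 in undifferentiated cells and 1.55 and 1.48 in EB, so the groups overlapped. The part of these ratios in the results was not tested.

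**Figure D1:**
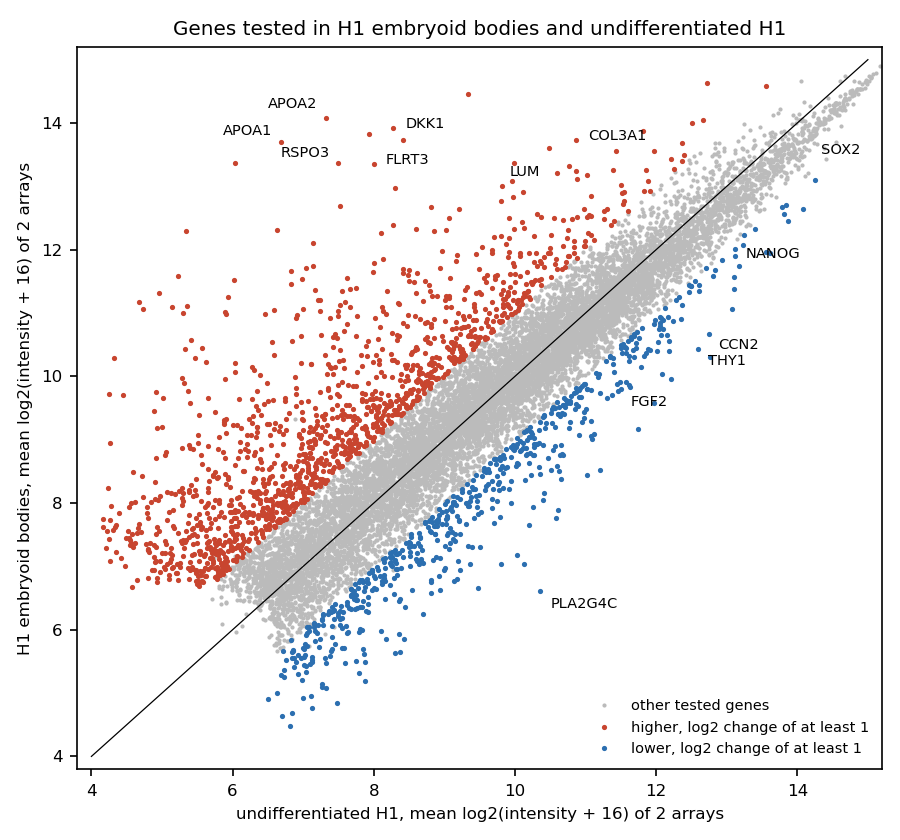
Mean log2(intensity + 16) of the 2 EB arrays (vertical) against the 2 undifferentiated arrays (horizontal) for the 13532 tested genes; the line marks equal values. Red marks the 1381 genes that rose and blue the 578 that fell by at least 1; the red points spread further from the line.

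Regulators and markers of pluripotency, held in 1 list, fell in most cases. Of 26 measured genes of this list, all tested, 23 fell and 3 rose. The median change was -0.97, beside 0.036 over all genes. POU5F1, read only by probe sets with several symbols, was not analysed. NANOG, a homeodomain factor of the core network, read 9243 and 8885 on the undifferentiated arrays and 4789 and 4409 on the EB arrays. Both EB arrays were lower and the groups did not overlap, a fall by 0.98 ± 0.058 (limma adjusted p = 4.31e-06). SOX2, the HMG-box factor that the network shares with neural progenitors, read 18375 and 19582 against 13976 and 14519, a smaller fall by 0.41 ± 0.048. The largest fall of the list was that of LCK, a Src-family kinase gene, from 4006 and 4016 to 714 and 793. LCK thus fell by 2.39 ± 0.072, and every undifferentiated array was above both EB arrays. Next came GAL, encoding the neuropeptide galanin, which fell by 2.02 ± 0.063, VRTN, which fell by 1.71 ± 0.097, and FOXD3, a forkhead factor shared with neural crest, which fell by 1.65 ± 0.14. DPPA2, a chromatin-associated factor of early embryos, fell by 1.49 ± 0.077, and ZSCAN10, a zinc finger factor, fell by 1.19 ± 0.093. Factors with other roles in the same cells fell as well: SALL4 by 1.15 ± 0.068, ZFP42 by 0.89 ± 0.086 and PRDM14 by 0.84 ± 0.16. The members that rose were OTX2, a homeodomain factor of the formative epiblast and the forebrain, ZIC2 and SALL1. OTX2 went from 2137 and 2173 to 7355 and 7435, a rise by 1.77 ± 0.052, while SALL1 rose by 0.58 ± 0.054 and ZIC2 by 0.26 ± 0.053, the latter not with centred arrays (0.10).

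Markers on the surface of stem cells divided. Of 21 measured markers 9 fell and 8 rose, beside 29.3% and 30.5% of all tested genes. B3GALT5, the galactosyltransferase that makes the precursor of the SSEA antigens, read 1382 and 1290.3 in undifferentiated cells and 247 and 251 in EB. THY1, the glycoprotein CD90, went from 5919.7 and 6421 to 1431 and 1312. Neither gene's groups overlapped, and they fell by 2.35 ± 0.095 and by 2.16 ± 0.069. The tetraspanin gene CD9 fell by 1.16 ± 0.052, and CDH3, P-cadherin, by 0.88 ± 0.062. PODXL, the carrier of the TRA-1-60 epitope, was not called, with 19177 and 19479 against 18594 and 17787 and a change of -0.088 ± 0.043. Adhesion molecules were among the members that rose, with NCAM1 higher by 1.96 ± 0.093 and ALCAM by 1.16 ± 0.055, as did the epithelial EPCAM, by 0.34 ± 0.044.

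Of the factors tied to the naive state of the preimplantation epiblast, 10 of 13 were tested, 3 rose and 3 fell. These counts were near the shares of all tested genes, of which 30.5% rose and 29.3% fell. DPPA5 fell by 2.11 ± 0.2 and NR5A2, a nuclear receptor gene, by 2.04 ± 0.16. In the other direction TBX3, a T-box factor also expressed in endoderm and amnion, went from 93.6 and 101 to 2611 and 2999 and rose by 4.63 ± 0.11, and KLF5 rose at least 3.20-fold. The RNA-binding proteins LIN28A and LIN28B, which block maturation of the let-7 microRNAs, fell by 0.36 ± 0.045 and by 0.21 ± 0.05, calls that were lost with quantile normalization (-0.073 and -0.067). Targets of let-7 did not move in 1 direction: HMGA2 rose by 0.54 ± 0.048 and HMGA1 fell by 0.67 ± 0.054. TERT, the catalytic subunit of telomerase, fell by 1.18 ± 0.19, with 311 and 236 in undifferentiated cells and 122 and 99.7 in EB. TERF1, which binds telomeric repeats, fell by 0.94 ± 0.048, whereas TERF2IP of the same shelterin complex rose by 0.92 ± 0.074, and so did TINF2 by 0.30 ± 0.069, not with centred arrays (0.14), and POT1 by 0.33 ± 0.063.

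Transcription factors of endoderm rose from low levels. Of 16 measured genes 13 were tested, of which 9 rose and 1 fell, with a median of 0.74 over the measured genes. GATA6, a zinc finger factor at the start of the endoderm programme, read 86.0 and 109.9 in undifferentiated cells and 3251 and 3208 in EB. GATA4, its close relative, read 43.6 and 37.1 against 519 and 501. SOX17, an HMG-box factor required for endoderm, read 74.7 and 85.8 against 1214 and 1331. Each of these 3 genes was higher on both EB arrays without overlap, and rose by 4.84 ± 0.12, at least 6.91-fold and by 3.74 ± 0.13. The pioneer factor FOXA2 rose by 3.03 ± 0.12, and FOXA1 at least 3.78-fold. LINC00261, a long non-coding RNA transcribed next to FOXA2, was near the floor in undifferentiated cells (2.95 and 21.2) and read 2148 and 2081 in EB, a rise of at least 28.6-fold. FOXA3 was the member that fell, by 0.42 ± 0.08. Some factors of later gut and liver stood low in both states: ONECUT1 and PDX1 were below the array median on all 4 arrays, and PROX1 read 74.1 and 71.1 against 85.6 and 60.2. ONECUT2 and HHEX were above that median on all 4 arrays. ONECUT2 was not called, and HHEX was called higher close to the threshold (limma adjusted p = 0.033). CDX2, the caudal factor of hindgut and trophoblast, read 3.30 and 7.03 against 50.1 and 66.8 and was not tested.

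Surface and early genes of endoderm rose in 12 of 13 tested cases, of 17 measured. CXCR4, a chemokine receptor, rose by 4.11 ± 0.1 and LGR5, the R-spondin receptor of gut stem cells, at least 27.1-fold. EOMES, a T-box factor of streak and endoderm, rose by 1.17 ± 0.087 and LAMA1, a laminin chain of its basement membrane, by 1.39 ± 0.066. STC1, the stanniocalcin hormone gene, fell by 2.11 ± 0.083.

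The largest rises of the comparison were in proteins that liver and yolk sac secrete. Of 29 measured members 23 were tested and 22 rose, 21 of them by at least 1. None fell, and 1, AMBP, was tested without a call. The median over the measured members was 4.03, beside 0.036 over all genes. TTR, transthyretin, a carrier of thyroid hormone and retinol-binding protein, read 94 and 23.0 in undifferentiated cells and 10477 and 10555 in EB. The undifferentiated arrays were low and unequal and the EB arrays high and close together, and TTR rose by 7.33 ± 0.54. APOA1 and APOA2, the main proteins of high-density lipoprotein, rose by 7.02 ± 0.076 and by 6.75 ± 0.11. APOA4 read 8.24 and 10.7 against 2396 and 2204 and APOC3 4.92 and 2.94 against 1171 and 1318. These apolipoproteins of lipid-rich particles went from below the array median to far above it, rising at least 31.1-fold and at least 16.8-fold. MTTP, the transfer protein that loads lipid onto apolipoprotein B, rose alongside at least 16.8-fold (28.2 and 28.1 against 1270.0 and 1216).

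The 3 fibrinogen chains moved together. FGA read 44.9 and 45.2 against 2403 and 2444, FGB 23.4 and 25.9 against 5087 and 4905 and FGG 16.1 and 14.2 against 2505 and 2537. All were below the median of both undifferentiated arrays and rose at least 32.8-fold, at least 67.7-fold and at least 34.1-fold. Carriers and protease inhibitors of plasma followed: RBP4, which carries retinol, rose at least 41.3-fold, SERPINA1, alpha-1-antitrypsin, at least 29.3-fold, and TF, transferrin, at least 27.6-fold. AFP, the fetal plasma protein, went from 252 and 207 to 14680.0 and 14454, while ALB, its adult counterpart, read 20.9 and 9.05 against 186 and 177. AFP rose by 5.90 ± 0.091 and ALB at least 2.45-fold. Of further hepatocyte plasma proteins AHSG rose by 4.03 ± 0.13, the coagulation factor F10 by 2.69 ± 0.31 and SERPINC1, antithrombin, at least 2.46-fold. APOH, ITIH2, CPB2, PLG and FETUB were not tested, and the highest EB array among these 5 was that of PLG (50.2 and 66.2).

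The promoter of FGG is shown because it is the member of this list with a match to the GATA motif and the largest change. AGATAA was searched on both strands in the 250 bases before the start of each gene. In the RefSeq promoters of build GRCh38.p14 it was present for 5 of 23 members with a promoter (21.7%) and in 6.81% of the 15382 promoters of measured genes. Of the matching members, AHSG, A1CF and FGG rose, and APOH and PLG were not tested. The stretch below is chr4:154612807-154612906 on the minus strand, printed 5′ to 3′ in the direction of the gene, with the match in capitals.
FGG: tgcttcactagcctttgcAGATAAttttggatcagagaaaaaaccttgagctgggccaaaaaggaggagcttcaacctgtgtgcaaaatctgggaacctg

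Genes of absorptive and secretory epithelia derived from endoderm rose in 16 of 18 tested cases, of 25 measured, with a median of 2.05. TFF1, a trefoil peptide of gastric mucus, read 29.9 and 20.7 in undifferentiated cells and 2211 and 2188 in EB. FABP1, the fatty acid binding protein of liver and gut, read 1.31 and 5.08 against 787 and 866. Both were without overlap and rose at least 29.8-fold and at least 11.2-fold. The endocytic receptor pair of visceral endoderm, CUBN and LRP2, rose at least 1.87-fold and by 2.57 ± 0.16, and their adaptor DAB2 by 1.69 ± 0.11. SLC40A1, the iron exporter ferroportin, rose at least 10.1-fold, and VIL1, the microvillus protein villin, by 2.54 ± 0.18. The Paneth cell defensins DEFA5 and DEFA6 rose at least 1.78-fold and at least 11.5-fold, and PRSS2, a trypsinogen with near-identical copies, at least 20.5-fold. GCG, MUC13, GUCA2A and GKN1 were below the array median on at least 3 of the 4 arrays and were not tested.

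Genes of the primitive streak and of mesoderm gave a mixed picture. Of 32 measured, 20 were tested, 14 rose and 1 fell. Among genes of the streak, EOMES and the WNT target SP5 rose, by 1.17 ± 0.087 and by 2.19 ± 0.14. TBXT, brachyury, read 235 and 239 against 296 and 220.2 and was not called (0.10 ± 0.17). MIXL1 (68.6 and 78.7 against 40.0 and 10.2) and GSC (2.76 and 3.34 against 2.54 and 3.63) were not tested. Among genes of later mesoderm, PDGFRA, a receptor of lateral and paraxial mesoderm and of primitive endoderm, went from 165 and 211 to 2491 and 2787 and rose by 3.71 ± 0.12. HAND1, a basic helix-loop-helix factor of extraembryonic and lateral mesoderm, read 56.0 and 75.3 against 857 and 857 and rose by 3.43 ± 0.16. APLNR, the apelin receptor, rose by 3.24 ± 0.37, FOXF1 at least 2.09-fold, PRRX1 by 1.84 ± 0.12 and TWIST1 by 1.71 ± 0.12. KDR, the VEGF receptor of blood and vessel precursors, fell from 2648 and 2605 to 1347 and 1303, a fall by 0.98 ± 0.062. In these bulk samples, fewer cells of a type and less RNA per cell cannot be told apart, nor more cells and more RNA.

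Genes of amnion and trophoblast rose in 11 of 17 tested cases, of 23 measured, against 30.5% of all tested genes. One, KRT7, fell by 1.11 ± 0.18. Several that rose, TFAP2A, ISL1, TBX3, HAND1 and DLX5 among them, are also members of other lists. GATA3, a zinc finger factor of trophoblast, amnion and surface ectoderm, read 102 and 121 in undifferentiated cells and 2112 and 2155 in EB, a rise by 4.08 ± 0.11. TFAP2A rose by 3.21 ± 0.097, ISL1 by 2.46 ± 0.13 and IGFBP3 by 1.86 ± 0.12. The related TFAP2C read 1249 and 1205 against 1312 and 1288 and was not called. GATA2, GABRP, PGF and WNT6 were not called either, and VTCN1 was not tested. Of the genes of differentiated trophoblast, GCM1, ERVW-1, ELF5 and XAGE2 were below the array median on all 4 arrays, and CGA, the alpha chain of chorionic gonadotropin, rose at least 1.45-fold to 115 and 99.4.

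Neuroectoderm genes rose in 24 of 27 tested cases and fell in 3, of 34 measured, with a median of 1.42. PAX6, the paired-box factor of the neural plate and eye field, read 61.9 and 37.8 in undifferentiated cells and 3295 and 2616 in EB, a rise of at least 39.8-fold. LHX2, a LIM homeodomain factor of forebrain and eye, went from 76.5 and 156 to 2959.7 and 2955. SIX3, of the anterior neural plate, went from 40.7 and 59.9 to 1083 and 1042. These anterior factors were separate on every array, with rises by 4.56 ± 0.24 for LHX2 and at least 14.4-fold for SIX3. SOX1, which marks neural progenitors, rose by 2.69 ± 0.11, ZIC1 by 3.43 ± 0.067 and HES5, a Notch target of progenitors, at least 7.67-fold. Of the midbrain and hindbrain genes, PAX2 rose at least 3.86-fold and EN2 by 1.06 ± 0.14. The neuronal STMN2 rose by 2.48 ± 0.081, and DCX and MAP2 rose by 1.36 ± 0.091 and by 2.20 ± 0.087. The members that fell were SOX2, POU3F1 at least 1.17-fold and TUBB3, a neuronal tubulin that fell by 0.45 ± 0.041 and was bright in both states (18514 and 18954 against 13646 and 13729).

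Genes of neural crest and of the neural plate border rose in 11 and fell in 3 of 16 tested cases, of 20 measured. Factors of the border that rose included MSX2 by 3.55 ± 0.13, DLX5 at least 3.24-fold, PAX3 by 2.43 ± 0.18 and PAX7 by 1.67 ± 0.28. SOX10, the factor of migrating crest, read 111 and 126 against 146 and 206 and was not called. Genes of specified and migrating crest went both ways. SNAI2 rose by 1.23 ± 0.17, TWIST1 by 1.71 ± 0.12, SOX9 by 0.65 ± 0.099 and TFAP2B by 1.52 ± 0.15, whereas FOXD3, ETS1 and EDNRB fell, ETS1 by 0.47 ± 0.15 and EDNRB by 1.10 ± 0.051. The call of ETS1 was lost without the second undifferentiated array (-0.20), without the first EB array (-0.46) and without the second (-0.47). SOX10 was called without the first EB array (0.72). Probe sets of EDNRB did not agree in direction and are described in the closing observations.

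Genes of axon and cell guidance rose in 21 of 29 tested cases and fell in 2. NRP1, a receptor for semaphorins and VEGF, rose at least 8.86-fold. Its relative NRP2 was not called (0.10 ± 0.12). Of the ephrin system the receptors EPHA3, EPHA4 and EPHB3 rose at least 6.27-fold, by 3.02 ± 0.068 and by 2.74 ± 0.23, and the ligands EFNB1 and EFNB2 at least 2.01-fold and by 2.24 ± 0.056. EPHA1 fell by 1.22 ± 0.07 and the semaphorin SEMA6A by 0.25 ± 0.056, the latter not without the second EB array (-0.20).

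**Figure D2:**
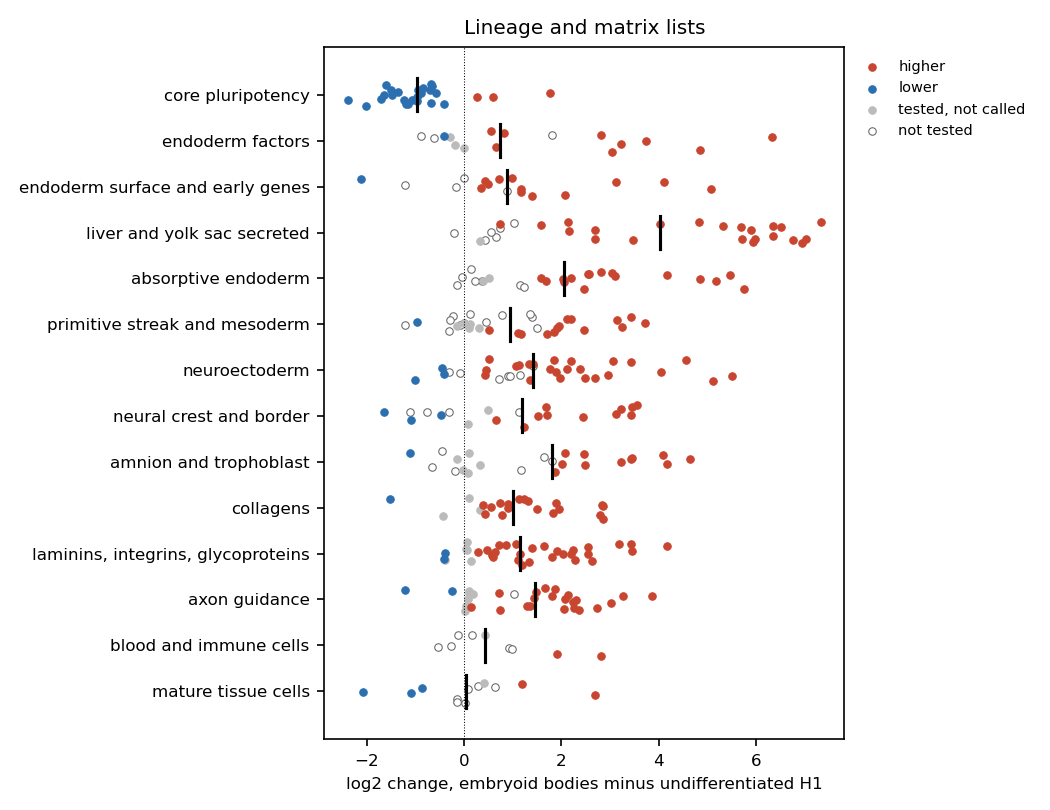
Log2 change (EB minus undifferentiated) of each measured gene in 14 lists, 1 point per gene, with the median of each list as a black bar. The secreted proteins of liver and yolk sac reach the highest changes with a median of 4.03; core pluripotency genes lie mostly below 0.

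Every tested gene of the BMP list rose. All 26 measured members were tested and all 26 rose, with a median of 1.80, against the 30.5% of all tested genes that rose. Ligands were among them. BMP2 read 304 and 345 against 3372 and 3231 and BMP4 160.0 and 101 against 530.2 and 600.2, without overlap, and they rose by 3.29 ± 0.087 and by 2.02 ± 0.2. BMP5, BMP6 and BMP7 rose by 2.62 ± 0.15, by 2.34 ± 0.13 and by 1.28 ± 0.093. Of the receptors, BMPR1B rose by 2.45 ± 0.19 and BMPR2 by 1.16 ± 0.084. The SMAD proteins that carry the signal differed in size, SMAD1 by 0.25 ± 0.07, SMAD5 by 0.43 ± 0.085 and SMAD9 by 3.53 ± 0.096. The call of SMAD1 was lost with centred arrays (0.096), which left 25 rises, and without the first EB array (0.18). With all probe sets of a gene averaged, 24 rose. The receptor ACVR2B, counted in the NODAL list below, fell. The lists were chosen with earlier results of these data known, so the count of 26 is no independent test.

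Direct targets rose too, by differing amounts. ID1, a helix-loop-helix inhibitor, went from 3621 and 3767 to 9513 and 9973, ID2 from 3961 and 4066 to 12449 and 11631, and ID3, which was bright at the start, from 8411 and 8424 to 10314 and 10084. EB were above undifferentiated cells on every array for the 3 genes, which rose by 1.40 ± 0.053, by 1.58 ± 0.053 and by 0.28 ± 0.045. Antagonists outside the cell were higher in the same samples. NOG, noggin, read 93.1 and 66.0 against 1529 and 1412 and rose by 3.97 ± 0.16. FST, follistatin, rose by 3.38 ± 0.053, GREM1, gremlin, by 2.66 ± 0.099, and CHRD, chordin, at least 1.62-fold. Within the cell the inhibitory SMAD6 rose by 1.43 ± 0.11, SMAD7 by 0.49 ± 0.09 and the decoy receptor BAMBI by 2.38 ± 0.052. The letters GGCGCC, a GC-rich motif bound by SMAD proteins, were in 6 of 23 upstream windows of this list (26.1%) and in 21.7% of all, a similar share.

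Genes of the NODAL and activin pathway went both ways. Of 17 tested genes 7 rose and 8 fell. The ligand NODAL fell by 0.78 ± 0.09, from 1226 and 1106 to 696 and 645, and GDF3, a related ligand, by 0.68 ± 0.085. LEFTY1, a target and inhibitor of the pathway, had the largest fall, from 1668 and 1449 to 202 and 243 (by 2.72 ± 0.12). FOXH1, the nuclear partner of SMAD2, fell by 0.85 ± 0.068. The receptor ACVR2B fell by 0.28 ± 0.062, a call lost with quantile normalization (-0.16), while ACVR1B and ACVR2A rose by 1.16 ± 0.075 and by 0.51 ± 0.11, and SMAD3 and SMAD4 rose by 0.88 ± 0.11 and by 0.60 ± 0.063.

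WNT pathway genes rose in 25 of 39 tested cases and fell in 4, WIF1, TCF7L1, FZD7 and SFRP1. The R-spondins, secreted amplifiers of WNT signals, were among the largest rises. RSPO3 read 170.1 and 159 in undifferentiated cells and 10157 and 11021 in EB, and RSPO1 25.5 and 10.0 against 467 and 371. Every EB array was above every undifferentiated array, and RSPO3 rose by 5.87 ± 0.076, RSPO1 at least 5.64-fold and RSPO2 at least 5.12-fold. Ligands of the non-canonical branch, WNT5A and WNT5B, rose by 2.26 ± 0.09 and by 1.88 ± 0.17. Frizzled receptors differed, with FZD1 higher by 2.90 ± 0.18, FZD10 by 2.25 ± 0.091 and FZD4 by 1.62 ± 0.1, FZD5 not called and FZD7 lower by 0.35 ± 0.046. Secreted antagonists rose in the same samples: DKK1, which blocks the LRP co-receptors, went from 321 and 266 to 15225 and 15651, a rise by 5.65 ± 0.087, and FRZB rose by 3.73 ± 0.076. WIF1, another antagonist, fell by 1.23 ± 0.11. Feedback targets that rose included SP5 by 2.19 ± 0.14, ZNRF3 by 0.98 ± 0.091, RNF43 by 1.33 ± 0.23 and AXIN2 by 0.62 ± 0.066. Of the nuclear factors LEF1 rose by 2.72 ± 0.079 and TCF7L1, the repressive TCF of stem cells, fell by 0.91 ± 0.093, while CTNNB1, beta-catenin, was not called (0.0018 ± 0.054).

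In the FGF and ERK pathway, 12 of 27 tested genes rose and 11 fell. The ligand FGF2, which is the bFGF left out of the EB medium, fell in its own transcript from 2972 and 2777 to 811 and 947, a fall by 1.69 ± 0.088. Transcriptional targets of the pathway that fell included ETV4 by 1.71 ± 0.14, ETV5 by 1.16 ± 0.071, SPRY4 by 1.47 ± 0.082, DUSP5 by 1.36 ± 0.083 and FOS at least 2.51-fold. Not all feedback genes fell. DUSP6 read 4411 and 4853 against 4523 and 4132 and was not called, DUSP4 rose by 1.83 ± 0.14, and SPRY1 and SPRY2 rose by 0.59 ± 0.065 and by 0.71 ± 0.058. Receptors that rose included FGFR3, which went from 894 and 1001 to 5773 and 5846 and rose by 2.60 ± 0.07, and FGFR1, which rose by 0.76 ± 0.066. FGF17, a ligand of streak and midbrain, rose at least 2.09-fold.

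Hedgehog genes rose in 11 of 13 tested cases. IHH, the ligand made by visceral endoderm and gut, read 20 and 31.6 against 767 and 962 and rose at least 11.6-fold. The decoy receptor HHIP rose by 3.80 ± 0.18, the co-receptor BOC by 3.01 ± 0.073 and the receptor PTCH1 by 1.36 ± 0.067. GLI1 was the member that fell, by 0.54 ± 0.15. Its call was lost without the first undifferentiated array (-0.49) or the second EB array (-0.42). In the Notch list 12 of 21 tested genes rose and 3 fell. The ligands DLL1 and JAG1 rose by 3.12 ± 0.19 and by 1.23 ± 0.052, and the targets HES1, HES4 and HEY1 by 1.87 ± 0.094, by 2.10 ± 0.16 and by 2.48 ± 0.069. RBPJ, the DNA-binding partner of Notch, fell by 0.77 ± 0.051, NOTCH1 by 0.42 ± 0.13 and the ligand DLL3 by 0.40 ± 0.14. DLL3 lost its call without any of the 4 arrays (-0.42 and -0.38 without an undifferentiated array, -0.35 and -0.45 without an EB array), and NOTCH1 without the first undifferentiated (-0.35) or the second EB array (-0.24). Averaged over a gene's probe sets, 7 genes of the Notch list rose.

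In a joint list of retinoid and HOX genes, 16 of 20 tested genes rose, of 24 measured, against 30.5% of all tested genes. With quantile normalization 13 rose, with centred arrays 12 and without the second EB array 11. ALDH1A1, an enzyme that makes retinoic acid, went from 48.9 and 103 to 1959.6 and 2065 and rose by 4.53 ± 0.24, and CYP26B1 and CYP26A1, which break it down, rose at least 3.68-fold and by 1.16 ± 0.12. The receptor gene RARB, itself a target, rose at least 3.38-fold and RARG fell at least 2.05-fold. HOXB3 and HOXB2 rose at least 4.82-fold and by 1.47 ± 0.16, while HOXB1, HOXB4, HOXA2 and HOXD1 were not tested. The HOX cofactors MEIS1 and MEIS2 rose at least 8.47-fold and by 3.21 ± 0.11. Of 14 tested genes of the insulin-like growth factor axis 6 rose and 3 fell, beside 30.5% and 29.3% of all tested genes. The binding proteins IGFBP5 and IGFBP6 rose by 3.28 ± 0.063 and by 2.50 ± 0.095 and IGFBP4 fell by 0.87 ± 0.14, while IGFBP2 was not called. The receptor INSR fell by 1.14 ± 0.096 and its substrate IRS2 by 0.33 ± 0.077.

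**Figure D3:**
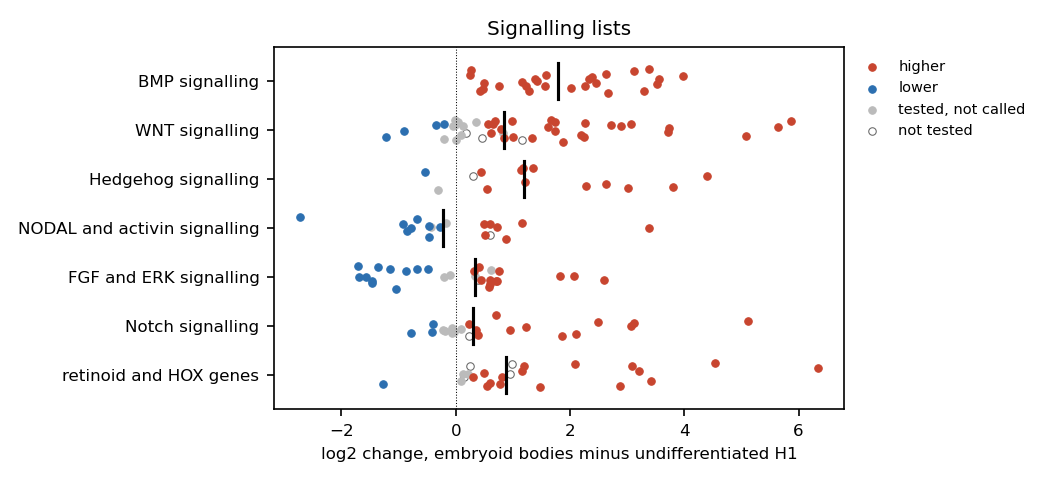
Log2 change (EB minus undifferentiated) of each measured gene in 7 signalling lists, 1 point per gene, with the median as a black bar. All 26 genes of the BMP list lie above 0. NODAL and FGF genes lie on both sides.

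Genes of the extracellular matrix rose widely. Of 22 tested collagen genes 18 rose and 1, COL14A1, fell by 1.53 ± 0.14. COL3A1, a fibrillar collagen, read 2258 and 1512 in undifferentiated cells and 13327 and 13743 in EB, a rise by 2.86 ± 0.16 with no overlap. The basement membrane chains COL4A1, COL4A2, COL4A5 and COL4A6 rose by 1.32 ± 0.049, by 1.49 ± 0.068, by 1.95 ± 0.062 and by 2.86 ± 0.11. Of 35 tested laminins, integrins and glycoproteins 27 rose and 2 fell. Among laminins LAMA1 rose by 1.39 ± 0.066, LAMB1 by 1.80 ± 0.062, LAMC1 by 0.64 ± 0.06 and LAMA4 at least 3.36-fold, while LAMA5 was not called. POSTN, periostin, rose by 4.16 ± 0.096 (278 and 239 against 4617 and 5182). LUM, lumican, rose by 3.19 ± 0.11 (1004 and 777 against 8057 and 8318), and HAS2, which makes hyaluronan, by 3.43 ± 0.091. Among integrins, ITGB1 and ITGA6 were not called, ITGB5 fell by 0.41 ± 0.052, and ITGA2 fell by 0.40 ± 0.12, a call lost without the first undifferentiated (-0.31) or the first EB array (-0.33).

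Genes that mark a change from epithelial to mesenchymal form moved in both directions, 9 up and 5 down of 18 tested. The repressors ZEB1 and ZEB2 rose by 3.41 ± 0.12 and by 3.05 ± 0.17. CDH2, N-cadherin, went from 2749 and 2751 to 12096 and 11941 and CDH1, E-cadherin, from 11541 and 11870.0 to 8727 and 9301. CDH2 rose by 2.12 ± 0.048 and CDH1 fell by 0.38 ± 0.05, so E-cadherin stayed bright in EB. The epithelial splicing factor ESRP1 fell by 0.80 ± 0.066 and the epithelial factor GRHL2 by 1.00 ± 0.12. Tight junction genes changed little as a list, with CLDN10 and CLDN6 lower by 1.12 ± 0.098 and by 0.84 ± 0.065 and CLDN1, CLDN18 and MARVELD2 higher by 1.13 ± 0.11, at least 2.40-fold and by 0.25 ± 0.071. MARVELD2 changed sign over the mean of its probe sets (-0.0029) and lost its call with centred arrays (0.094), without the second undifferentiated (0.21) and without the first EB array (0.18). Keratin and desmosome genes went both ways, 6 up and 4 down of 13 tested. KRT8 and KRT19, keratins of simple epithelia, rose by 0.84 ± 0.054 and by 1.37 ± 0.056, whereas KRT7 fell by 1.11 ± 0.18.

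Genes of the actin cytoskeleton and of the SRF and YAP response fell in 19 of 28 tested cases, against 29.3% of all tested genes, and rose in 2. CCN2, a matricellular target of the YAP coactivator, read 7185 and 6659 in undifferentiated cells and 1194 and 1310.2 in EB. CCN1, its relative, read 4322 and 4319.9 against 990.1 and 1071, and ANKRD1 148 and 140.1 against 21.5 and 14.7. The 3 targets were lower on both EB arrays without overlap and fell by 2.45 ± 0.07, by 2.05 ± 0.065 and at least 1.71-fold. Smooth muscle and contractile genes, which the factor SRF drives, fell as well, ACTG2 by 1.70 ± 0.18, TAGLN by 1.51 ± 0.063, CNN1 by 1.47 ± 0.12 and MYL9 by 0.78 ± 0.13. SRF itself fell by 0.67 ± 0.11 and TEAD4, a DNA-binding partner of YAP, by 1.36 ± 0.073. YAP1 rose by 0.26 ± 0.047, though not with centred arrays (0.10), and the tissue factor gene F3 rose by 0.88 ± 0.13. ACTA1, a skeletal actin gene outside the list, fell by 2.83 ± 0.12, from 1554 and 1493 to 181 and 223. The part of Y-27632, medium or attachment in the falls of this paragraph was not tested.

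The upstream stretches of CCN2 and ACTG2 are shown as the called members with the largest change among those with a TEAD or a CArG match. GGAATG, the core letters that TEAD factors bind, was found in 6 of 22 windows of the list (27.3%) and in 10.3% of all. The CArG box, the motif of SRF, was found in 6 (27.3%), against 1.14% of all. In CCN2 the stretch is chr6:131951452-131951551 on the minus strand, and in ACTG2 chr2:73892871-73892970 on the plus strand. Capitals mark TEAD letters in CCN2 and CArG boxes in ACTG2.
CCN2: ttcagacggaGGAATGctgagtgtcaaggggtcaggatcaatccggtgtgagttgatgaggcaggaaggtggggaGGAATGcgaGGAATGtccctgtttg
ACTG2: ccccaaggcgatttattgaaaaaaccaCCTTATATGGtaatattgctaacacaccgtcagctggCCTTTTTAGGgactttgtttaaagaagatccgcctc

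Targets of ATF4, the transcription factor of amino acid shortage, and genes of the unfolded protein response moved in opposite directions. Of 24 tested genes of the ATF4 response and of serine synthesis 21 fell and 0 rose, with a median of -0.94. CHAC1, which degrades glutathione, read 744 and 950.0 against 232 and 257. ASNS, asparagine synthetase, read 7026 and 7582 against 3210.1 and 3354, and TRIB3, a pseudokinase of the same response, 627 and 648 against 302 and 248. Both EB arrays were lower for each gene, and they fell by 1.72 ± 0.14, by 1.15 ± 0.059 and by 1.17 ± 0.13. Enzymes of serine and folate metabolism fell, PHGDH by 0.83 ± 0.058, SHMT2 by 0.99 ± 0.056 and MTHFD2 by 1.14 ± 0.091, and ATF4 itself by 0.73 ± 0.069. DDIT3, PSPH and SLC3A2 were not called. Genes of the unfolded protein response, by contrast, rose in 14 of 20 tested cases and fell in 1, SEC61B by 0.17 ± 0.045. SEC61B lost its call with quantile normalization (-0.030) and without the second EB array (-0.15), and changed sign over the mean of its probe sets (0.13). HSPA5, the chaperone BiP, went from 13479 and 13572 to 18018 and 18403, a rise by 0.43 ± 0.041. The sensor ERN1 rose by 1.12 ± 0.18, its target XBP1 by 0.46 ± 0.06, and the secretory chaperone genes DNAJB9 and CRELD2 by 1.16 ± 0.066 and by 1.11 ± 0.077.

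Upstream stretches are shown for CHAC1 and ASNS, the called ATF4 targets with a match and the largest changes, and for CRELD2, the same for the unfolded protein response. TGATGNAA, the letters of the element that ATF4 and C/EBP factors bind, was in 3 of 20 windows (15%), those of CHAC1, ASNS and ATF3, and in 2.31% of all. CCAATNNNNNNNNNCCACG, the endoplasmic reticulum stress element, was in 6 of 19 windows of the unfolded protein response (31.6%) and in 0.104% of all. Its first letters also count as a CCAAT box. Of those members XBP1, CALR, HSPA5 and CRELD2 rose, and CANX and HSP90B1 were not called. The stretches are chr15:40953221-40953320 on the plus strand for CHAC1, chr7:97872423-97872522 on the minus strand for ASNS and chr22:49918513-49918612 on the plus strand for CRELD2, with matches on either strand in capitals.
CHAC1: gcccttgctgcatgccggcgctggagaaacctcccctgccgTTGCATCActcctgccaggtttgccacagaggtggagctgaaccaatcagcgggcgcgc
ASNS: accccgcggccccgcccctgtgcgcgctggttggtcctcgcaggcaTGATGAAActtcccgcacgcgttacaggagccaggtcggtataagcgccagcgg
CRELD2: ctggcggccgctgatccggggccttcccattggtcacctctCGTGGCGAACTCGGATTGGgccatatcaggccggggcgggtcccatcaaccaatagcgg

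Genes of sterol and fatty acid synthesis fell in 18 of 24 tested cases. ACACA, the enzyme that commits carbon to fatty acids, fell by 1.04 ± 0.07 and FASN by 0.85 ± 0.07. Of the sterol branch HMGCS1 fell by 0.75 ± 0.051, IDI1 by 0.98 ± 0.055, LSS by 0.92 ± 0.07 and FDPS by 0.85 ± 0.045. The regulator SREBF1 fell by 0.83 ± 0.16. SC5D and MSMO1, late enzymes of the pathway, rose by 0.25 ± 0.053 and by 0.16 ± 0.045. Both calls were lost with centred arrays (0.094 and 0.00033), and that of MSMO1 also without the first (0.14) or the second EB array (0.17). The letters CACCNCAC, bound by SREBP, were in 2 of 22 windows (9.09%), those of SCD and SREBF2, and in 4.94% of all.

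Genes of glycolysis and of the hypoxia response went both ways. Of 27 tested genes 16 fell and 7 rose. HK1, the first enzyme of glycolysis, went from 5432 and 5034 to 1953 and 1852 and fell by 1.45 ± 0.063. ALDOC fell by 1.17 ± 0.089, LDHA by 0.43 ± 0.041 and PKM by 0.49 ± 0.1. VEGFA, a growth factor and hypoxia target, went from 1143 and 1130.2 to 3237 and 3178 and rose by 1.48 ± 0.061. NDRG1 rose by 1.26 ± 0.16, P4HA1 by 1.15 ± 0.059 and the glucose transporter SLC2A1 by 0.96 ± 0.081, whereas the hypoxia targets PDK1 and BNIP3 fell by 0.71 ± 0.073 and by 0.55 ± 0.074.

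Housekeeping genes often used as references were not level: 5 of 11 fell and 2 rose, GUSB by 0.74 ± 0.06 and B2M by 0.44 ± 0.045. Of all tested genes 59.8% rose or fell. The housekeeping counts depended on scaling: 2 fell and 3 rose with quantile normalization, and 9 fell and 2 rose with centred arrays. Small falls were shared by genes of oxidative phosphorylation and of ribosomes, and they depended on scaling. As deposited, 21 of 27 respiratory genes fell with a median of -0.30, and 21 of 21 ribosomal protein genes fell with a median of -0.31. After quantile normalization 12 and 3 fell, with medians of -0.13 and -0.023. RPL22L1, a paralogue of a ribosomal protein, fell further than the rest, by 1.44 ± 0.046, from 16879 and 17619.9 to 6308 and 6411. Of ribosome biogenesis and translation genes, 16 of 20 fell. POLR3G, the stem cell form of an RNA polymerase III subunit, fell by 1.50 ± 0.063 and EIF4EBP1, an inhibitor of cap-dependent translation, by 1.45 ± 0.073.

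**Figure D4:**
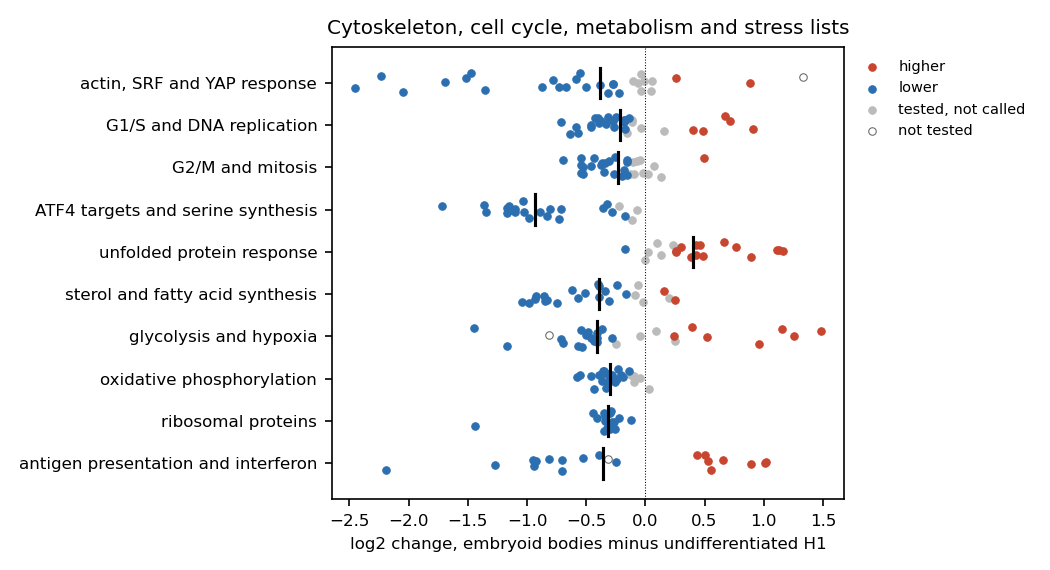
Log2 change (EB minus undifferentiated) of each measured gene in 10 lists of cytoskeleton, cell cycle, metabolism and stress, 1 point per gene, with the median as a black bar. ATF4 targets lie lowest, with a median of -0.94, and unfolded protein response genes mostly above 0.

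Cell cycle genes fell by small amounts. Of 30 tested genes of G1/S and replication 20 fell and 5 rose, with a median of -0.22. Of 30 of G2/M and mitosis 20 fell and 1, NEK2, rose by 0.50 ± 0.059, with a median of -0.23. With quantile normalization these medians were -0.15 and -0.14. CCNE1, the G1 cyclin, went from 1480.3 and 1587 to 913 and 946, a fall by 0.71 ± 0.075, while CCND1 rose by 0.71 ± 0.076 and CDK6 by 0.91 ± 0.066. PLK1, the mitotic kinase, fell by 0.69 ± 0.1. CDKN1C, an imprinted inhibitor of cyclin-dependent kinases, went from 1121 and 1041 to 5532 and 5574 and rose by 2.34 ± 0.063. CDKN1A, the p53 target p21, rose by 0.85 ± 0.14, and other p53 targets moved both ways, with GADD45A higher by 1.31 ± 0.068 and RRM2B lower by 0.87 ± 0.069.

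PLK1 is shown for its upstream stretch because it has the largest called change among G2/M genes that match the CHR element. TTTGAA, the core of that cell cycle element, was in 12 of 25 windows of the list (48.0%) and in 10.6% of all. CCAAT was in 80.0% and in 34.1%. The stretch is chr16:23678789-23678888 on the plus strand, with both motifs in capitals.
PLK1: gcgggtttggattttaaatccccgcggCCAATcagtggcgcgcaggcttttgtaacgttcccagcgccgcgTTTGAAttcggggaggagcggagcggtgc

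The BCL2 family, which sets the threshold for apoptosis, fell in 7 of 16 tested cases, beside 29.3% of all tested genes. Members that promote apoptosis and fell included PMAIP1 by 1.54 ± 0.05, BOK by 1.44 ± 0.11, BAX by 0.89 ± 0.094 and BAK1 by 0.55 ± 0.095. Of the members that oppose it, BCL2 rose by 1.30 ± 0.17, from 163 and 122 to 382 and 360.0, BCL2L2 rose by 0.43 ± 0.11 and MCL1 fell by 0.68 ± 0.049.

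Enzymes of chromatin moved both ways. DNMT3B, the de novo DNA methyltransferase that is abundant in stem cells, went from 24976 and 25382 to 15223 and 16401, a fall by 0.67 ± 0.048. TET1 fell by 0.49 ± 0.058 and TET2 rose by 1.47 ± 0.22, both encoding enzymes that oxidise methylated cytosine, and UHRF1, which guides maintenance methylation, rose by 0.29 ± 0.052, not with centred arrays (0.14). Within Polycomb complexes, PHC1 fell by 1.60 ± 0.055 and its paralogue PHC2 rose by 1.62 ± 0.11, JARID2 fell by 0.78 ± 0.047, and EZH1 and EZH2 rose by 0.83 ± 0.09 and by 0.62 ± 0.064. EED and SUZ12, the other core subunits of PRC2, were not called. Of the demethylases that act on the Polycomb mark, KDM6B rose by 1.51 ± 0.15 and KDM6A fell by 0.90 ± 0.075. PRDM1, a repressor of endoderm and germ cells, went from 61.9 and 81.9 to 715 and 763, a rise by 3.11 ± 0.16.

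Imprinted genes, which are expressed from the copy of 1 parent, rose in 10 and fell in 3 of 15 tested cases. DLK1, a non-canonical Notch ligand, read 688 and 577 against 22716 and 22259.8 and rose by 5.12 ± 0.081. PLAGL1, a zinc finger factor, rose by 2.97 ± 0.11 together with HYMAI from the same locus at least 1.48-fold, and the neighbours PEG10 and SGCE rose by 1.21 ± 0.05 and by 1.13 ± 0.067. NNAT, neuronatin, rose by 1.83 ± 0.073. PHLDA2 fell by 0.75 ± 0.09, GRB10 by 0.42 ± 0.069 and GNAS by 0.18 ± 0.045. GNAS changed sign with quantile normalization (0.090) and lost its call without the first EB array (-0.15).

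Antigen presentation genes went both ways. Of 19 tested genes 8 rose and 11 fell, and without the second undifferentiated array 7 fell. The inducible proteasome subunit PSMB8 went from 688 and 727 to 147 and 137 and fell by 2.19 ± 0.12, and PSMB9 fell at least 1.95-fold. The peptide transporters TAP1 and TAP2 fell by 0.70 ± 0.14 and by 0.92 ± 0.13. In the other direction B2M, the light chain of class I molecules, rose by 0.44 ± 0.045, and the heavy chains HLA-B, HLA-C and HLA-E by 1.02 ± 0.073, by 0.55 ± 0.045 and by 0.52 ± 0.059, with near-identical copies in the family that probes may not separate. IFITM1 to IFITM3 fell, IFITM1 by 0.95 ± 0.043. Among chemokines the neutrophil attractants CXCL5, CXCL6, CXCL2 and CXCL3 fell by 2.58 ± 0.087, by 2.02 ± 0.13, by 1.90 ± 0.19 and by 1.73 ± 0.17, and CXCL12 fell by 0.84 ± 0.064. Both receptors of CXCL12 rose, CXCR4 by 4.11 ± 0.1 and ACKR3 by 3.78 ± 0.12. Immediate early genes did not move as a group: FOS and FOSL1 fell at least 2.51-fold and at least 2.01-fold, and FOSL2 and NR4A2 rose by 1.44 ± 0.2 and at least 2.41-fold.

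For some genes the probe sets differed. When all probe sets of a gene were averaged in place of the brightest, the calls of BCL2, CCNE1, CDK6, COL14A1, HMGA2, KRT7, LAMA4, MYL9, PAX7, PHLDA2, PKM, POT1, RARG, RBPJ, SMAD3, SMAD4, SMAD6, TINF2 and GNAS were lost, with the direction kept. CTNNB1 was called higher with quantile normalization, and PODXL and DUSP6 were called lower with centred arrays. Related transcripts may add to the signal of the probe sets (suffix x_at) that read APOA1, PRSS2, CXCL2, CXCL5, DLL3, HES4, IDI1, JAG1, KRT8, MSX2, NR4A2, PLAGL1, RBPJ, STC1, TINF2, TUBB3, GNAS and ZFP42 among the genes above, and HLA-B, HLA-C and HLA-E.

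Markers of blood and mature tissues were mostly low, and those of fibroblasts and endothelium were not. Of 9 blood and immune genes 1 was above the array median on both undifferentiated arrays and 3 on both EB arrays, and their summed intensity was 349 and 383 against 702 and 809. PTPRC, SPI1, CD14 and ITGAM were not tested; PTPRC, the pan-leukocyte marker, read 5.45 and 7.10 against 20.9 and 32.2. HBE1, embryonic globin, rose at least 2.76-fold, and LYZ, lysozyme, at least 2.03-fold. Of 12 markers of mature tissues 3 and 4 were above it, the sums were 1295 and 1338 against 997 and 1004, and INS, GFAP, MYH6, MYH7 and GCG were not tested. SNAP25 and ALB rose, and SYN1, MBP and MYH2 fell. Of 14 fibroblast and endothelial genes 9 were above the median on both undifferentiated and 10 on both EB arrays. Of these genes 6 rose and 2 fell, THY1 by 2.16 and S100A4 by 0.98 ± 0.075. The sums were 18692 and 18164 against 38359.5 and 37319.9. LUM, DCN and COL3A1 are in that list as well as among matrix genes, PECAM1 rose at least 2.85-fold and CDH5, a defining endothelial cadherin, was not tested (34.1 and 12.4 against 39.1 and 19.1). The part of such cells in the matrix rises was not tested.

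Outside the lists, the largest rises were in genes of several kinds. FLRT3, a cell surface adhesion and FGF-signalling protein, went from 228 and 252 to 9838 and 10996. GASK1B, a Golgi-associated kinase-like gene, went from 184 and 152 to 6754 and 6384, and ZNF503, a developmental zinc finger gene, from 117 and 134 to 4333 and 4428. The 3 genes were separate on every array and rose by 5.35 ± 0.082, by 5.17 ± 0.098 and by 4.96 ± 0.092. The salivary cystatins CST1, CST4 and CST2, protease inhibitors of near-identical sequence, rose by 5.31 ± 0.14, by 4.68 ± 0.27 and by 4.60 ± 0.63, and probes may not separate them. CST2 lost its call without the first (4.44) or the second EB array (4.76). CTSE, an aspartic protease of the stomach, rose at least 27.8-fold. AKR1D1, a reductase of bile acid synthesis, rose at least 18.5-fold, and UGT2B28, a glucuronosyltransferase with close relatives, at least 18.7-fold. The potassium channel KCNJ16 and the brush border scaffold PDZK1 rose at least 15.9-fold and at least 15.9-fold. Developmental factors among the 20 largest were FOXQ1 by 4.67 ± 0.093, the forebrain factor EMX2 by 4.46 ± 0.14 and the eye gene MAB21L2 by 3.97 ± 0.1. LGI1, LIX1, SYTL5, TNFRSF19 and TFPI, an inhibitor of coagulation, rose by 4.21 ± 0.17, by 4.05 ± 0.13, by 4.0 ± 0.093, by 3.93 ± 0.085 and by 3.87 ± 0.078.

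The largest falls outside the lists were smaller. PLA2G4C, a phospholipase, read 1238 and 1357 in undifferentiated cells and 86.7 and 77.4 in EB, a fall by 3.74 ± 0.12. NPTX1, a neuronal pentraxin, read 1310.0 and 935 against 142 and 93.3, and P2RY1, a receptor for ADP, 2313 and 2366 against 341 and 366. The EB arrays of both lay far below the undifferentiated ones, and they fell by 3.10 ± 0.21 and by 2.67 ± 0.081. ZDHHC22, a palmitoyltransferase gene, fell by 2.77 ± 0.12, CUZD1 by 2.54 ± 0.12, the calcium pump ATP2A3 by 2.38 ± 0.21 and C1orf94 by 2.37 ± 0.17. The cytokine genes TNFSF11 and CCL26 fell by 2.33 ± 0.13 and by 2.32 ± 0.17. RASGRP2, an exchange factor for small GTPases, fell by 2.32 ± 0.1, and KLKB1, plasma prekallikrein, by 2.27 ± 0.093. BEND4, a bright gene in undifferentiated cells, went from 4518 and 4914 to 1019 and 940.0 and fell by 2.25 ± 0.072. GLB1L3 and NRK fell by 2.26 ± 0.096 and by 2.23 ± 0.18, and SEMG1 fell at least 4.75-fold.

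**Figure D5:**
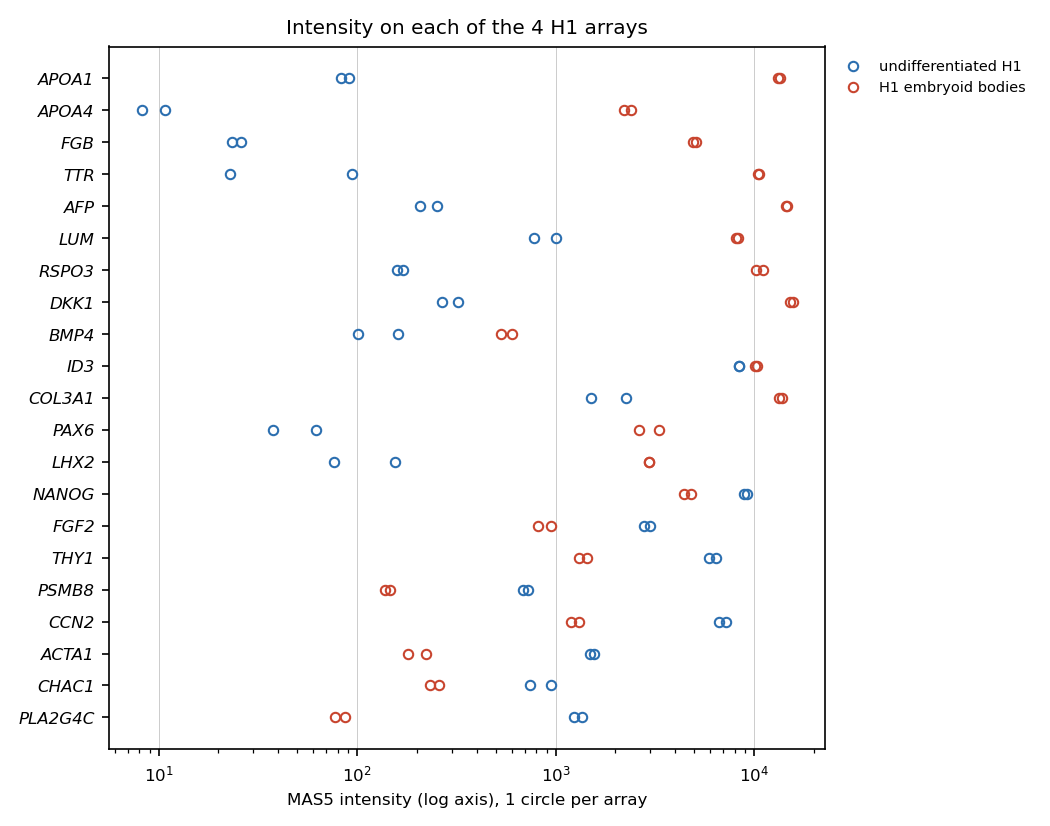
MAS5 intensity on a log axis for 21 genes named in the text, 1 circle per array, undifferentiated H1 in blue and EB in red. The groups do not overlap for any gene drawn; rises such as those of APOA4 and FGB span more of the axis than any fall drawn.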

How the data were processed

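RNA of undifferentiated H1 and of H1 EB, 2 samples each, was measured on Affymetrix Human Genome U133 Plus 2.0 arrays. The authors deposited a linear intensity for each probe set, and the submitters' processing notes name MAS5, whose version is not given in the sources used here. With 2% trimmed at each end, the mean was 500.1 on each of the 4 arrays, so they had been scaled to one target. Such scaling holds the mean level, and small shifts shared by many genes depend on it. Low values are noisy because MAS5 subtracts the signal of mismatch probes. No detection call was used here, so the array median served as the limit for dim genes.

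Of 54675 probe sets 62 were controls, 41091 carried 1 symbol, 1801 several and 11721 were unnamed here. Of those with 1 symbol, 41037 matched a RefSeq gene by Entrez identifier and 0 symbols changed. Genes read only by probe sets with several symbols, POU5F1 among them, were not analysed here. limma 3.58.1 in R 4.3.3 (lmFit, eBayes with trend and robust) was fitted to log2(intensity + 16) of the 4 arrays with 2 residual degrees of freedom and tested on simulated data. Adding 16 understates the folds of low genes. For a gene below the array median on both arrays of a group, the other group's mean log2 intensity was set against the mean log2 array median.

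The deviations of arrays with the same replicate number correlated at -0.0056 across genes, so the numbers were not taken as pairs. The 50 lists and the rule for named genes were chosen with earlier results of these data known. Named were list members, first the called with the largest change and those against a list's majority where these were 3 or fewer, and outside the lists the 20 largest called changes in each direction. Also named were genes with probe sets in opposite directions and, for promoters, called members with a match and the largest change. Upstream windows of 250 bases came from RefSeq promoters (GRCh38.p14), found for 15382 measured genes. Alternatives tried were other scalings, added values, filters, probe set choices and fits, a block for the replicate number, and each array left out in turn.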

Additional observations from a re-analysis of the deposited data

Results flagged for a closer look

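Changes were also seen in probe sets that name no single gene and that no comparison above used. In 1 fit over all probe sets, 1123 of the 1801 probe sets with several symbols were tested. Of these 101 rose by at least 1 on the log2 scale (8.99%) and 21 fell (1.87%), at a limma adjusted p under 0.05. Among unnamed probe sets 3039 were tested, 245 rose (8.06%) and 163 fell (5.36%). The same shares for probe sets with 1 symbol were 9.34% and 3.97%. The unnamed probe set with the largest fitted change upward rose at least 17.6-fold, from 8.62 and 13.5 on the undifferentiated arrays to 1245 and 1353 on the EB arrays. The probe set with the largest change downward fell by 3.40 on the log2 scale, from 2883 and 2325 to 233 and 229.9. Both groups were separate on every array in either case. Groups of 2 arrays are too small for a test of single outlying arrays.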

How the results depend on the processing

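The number of changed genes stayed between 6510 and 8401 under all alternatives with all 4 arrays, against 8098. With the filter on mean log2 value, 1068 genes changed by at least 1, against 1959. That filter keeps genes whose mean over the 4 arrays lies above the median of all genes, and 9887 genes were tested with it. Leaving out each array in turn gave 6813 to 7630 changed genes and 1977 to 2025 with a change of at least 1. Genes with probe sets in opposite directions numbered 6, 2 with 64 added before the log2, 9 without a filter, and 6 to 7 with an array left out. EDNRB and INVS were among them under every alternative run for this result. A replicate block gave 8054 changed genes, 1962 with a change of at least 1 and 6 with opposite probe sets, and it changed no call of a named gene. For the 401 genes named with values, 5752 of 5833 values under the alternatives kept their side of the threshold, 72 lost a call, 6 gained a call and 3 reversed. The reversals were SEC61B and MARVELD2 over the mean of their probe sets (0.13 and -0.0029) and GNAS with quantile normalization (0.090), and the cause was not tested. Of the calls kept against the main count, 7134 of 8098 held with quantile normalization in the same direction and 7081 with centred arrays. Arrays give no counts, so signal over background limits the low genes.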

Other observations

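Neighbouring genes rose together in several places. Runs of at least 3 neighbouring protein-coding genes with a measured value, each called higher with a fitted change of at least 2 on the log2 scale, numbered 5 in RefSeq order. On chromosome 11 these were APOA4 (at least 31.1-fold), APOC3 (at least 16.8-fold) and APOA1 (by 7.02 ± 0.076). On chromosome 4 the fibrinogen genes FGB, FGA and FGG rose at least 67.7-fold, at least 32.8-fold and at least 34.1-fold. The cystatins CST3, CST4, CST1 and CST2 on chromosome 20 changed by 2.08 to 5.31. The other 2 runs were ART4, MGP and ERP27 on chromosome 12 (at least 2.16-fold, at least 3.12-fold and at least 8.04-fold), and MYO3B, SP5 and GAD1 on chromosome 2 (at least 6.11-fold, by 2.19 ± 0.14 and by 3.79 ± 0.11). Among falls of at least 1, the longest runs had 4 genes. These were CXCL5, CXCL3, CXCL2 and MTHFD2L on chromosome 4 (-2.58 to -1.03), and MATK, ZFR2, ATCAY and NMRK2 on chromosome 19 (-1.66 to -1.18). TCL1A, TCL1B and TUNAR fell as neighbours on chromosome 14 (-2.09 to -1.12). These runs were picked after their values were seen and carry no test.

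Long non-coding RNAs changed in both directions. Of 2657 measured, 646 were tested, 163 rose and 115 fell, 69 and 42 of them by at least 1. The shares that rose and fell, 25.2% and 17.8%, were below those of all tested genes, 30.5% and 29.3%, with no test of the difference. After LINC00261, the largest rises were LINC00348 at least 9.29-fold, CT75 at least 15.1-fold and LINC00479 at least 10.6-fold, followed by the antisense genes GATA6-AS1 at least 8.37-fold, OTX2-AS1 at least 2.89-fold and DIO3OS at least 3.66-fold. Falls were led by D21S2088E by 2.85 ± 0.15 and LINC01844 by 2.83 ± 0.2, and included MACC1-OT1 by 2.56 ± 0.078, B3GALT5-AS1 by 2.27 ± 0.15, TDRG1 at least 2.61-fold and SPRY4-IT1 at least 1.94-fold. The coding genes GATA6, OTX2, B3GALT5 and SPRY4, after which some of them are named, moved in the same direction as these RNAs. The strand that a probe set reads was not checked here, and genes other than the largest changes outside the lists were chosen after their values were seen.

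For 6 of 6401 genes with at least 2 tested probe sets (0.0937%), 1 probe set rose and another fell by at least 1. The clearest was EDNRB, the receptor for endothelins, which was bright on all arrays. Its brightest probe set read 7837 and 7790 in undifferentiated cells and 3708 and 3549 in EB, and another read 3850.3 and 3727 against 1633 and 1586. Its remaining probe set went the other way, from 691 and 694 to 1681 and 1513. The changes of EDNRB were -1.10 ± 0.053, -1.23 ± 0.061 and 1.18 ± 0.084 on the log2 scale, with no overlap of the groups. INVS, inversin, had 1 probe set at 273 and 229 against 615 and 617, and another at 223 and 154 against 32.3 and 41.0. FMN2, SYNE1, TBXA2R and SAP30L were nearer to the array median in at least 1 of the opposing probe sets, and none of these 4 remained with 64 added before the log2. Which transcripts the probe sets read was not tested.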
